A study of Mus musculus with 1 sample.

Results

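A group of heat shock and small chaperone genes, 9 of the 32285 genes counted, was followed across the cell classes of the postnatal mouse adrenal medulla. They were *Hspa1a*, *Hspa1b*, *Dnajb1*, *Hsph1*, *Bag3*, *Hsp90aa1*, *Hspa8*, *Hspb1* and *Cryab*, matched by gene symbol, and every one had UMIs in every class. The genes were chosen with their levels in these same cells in view. Of the 9, 5 were among the variable genes used to cluster all cells, and those used to cluster medullary cells again were not counted. Levels are therefore given as a description, and no difference between classes was tested. The data were a single 10x Genomics 3′ library of wild-type mice at postnatal day 15 (P15), for which the label gives no treatment. It was made from 10 adrenal glands of 5 mice of both sexes that were pooled, freed of most cortex by hand and digested with collagenase and trypsin at 37 °C, so no spread between animals could be measured. All intervals below are 95% intervals that cover counting error alone.

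Heat shock proteins are chaperones that bind unfolded or partly folded proteins and prevent their aggregation. A part of the family is transcribed at a steady level in nearly every cell, and another part is switched on within minutes of heat, oxidative injury or other proteotoxic stress by the transcription factor HSF1, which binds repeated GAA units known as heat shock elements. In glia, lens and muscle, the small heat shock proteins are also expressed as part of the normal differentiated state.

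The single-exon pair *Hspa1a* and *Hspa1b* encodes the stress-inducible Hsp70 and lies on the minus strand of chromosome 17, with *Hspa1a* at chr17:34969190-34972156 and *Hspa1b* at chr17:34956436-34959238 (GRCm38). Upstream windows of 250 bases, ending 1 base before the RefSeq start and read from the RefSeq promoter table (GRCm38.p6), are printed for the genes that set the patterns described here, with capitals marking each pair of inverted GAA units (GAANNTTC or TTCNNGAA, searched on both strands).

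Hspa1a, chr17:34972157-34972406, minus strand: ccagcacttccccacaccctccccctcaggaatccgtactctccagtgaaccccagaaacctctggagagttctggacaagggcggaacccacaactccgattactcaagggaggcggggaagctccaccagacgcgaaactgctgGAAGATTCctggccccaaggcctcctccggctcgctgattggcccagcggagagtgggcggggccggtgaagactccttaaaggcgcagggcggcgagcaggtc

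Hspa1b, chr17:34959239-34959488, minus strand: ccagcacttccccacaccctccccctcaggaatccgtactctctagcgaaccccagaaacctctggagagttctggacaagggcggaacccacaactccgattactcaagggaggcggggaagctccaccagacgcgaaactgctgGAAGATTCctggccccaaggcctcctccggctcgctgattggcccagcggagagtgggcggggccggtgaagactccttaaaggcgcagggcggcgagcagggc

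Hspb1, chr5:135887669-135887918, plus strand: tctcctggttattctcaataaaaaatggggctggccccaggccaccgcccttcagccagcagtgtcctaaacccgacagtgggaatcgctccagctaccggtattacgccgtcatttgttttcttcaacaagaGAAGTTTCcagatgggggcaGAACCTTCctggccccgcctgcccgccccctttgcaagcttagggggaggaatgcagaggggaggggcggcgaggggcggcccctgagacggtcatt

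The *Hspa1a* and *Hspa1b* windows differed at 3 of 250 bases, C44T, T47C and T249G, counted from 1 at the 5′ end of the window with the *Hspa1a* base first. Each held 1 match, whose first base lay 104 bases before the start. The *Hspb1* window held 2 matches, 117 and 97 bases before the start. The 2 annotated *Hsph1* windows overlap and held the same single match, 54 and 33 bases before their starts. No match was found in the windows of *Dnajb1* or *Bag3*. Of 32851 mouse promoter windows of this length, 12.8% held at least 1 match and 1.46% held at least 2. None of the member windows held 3 consecutive alternating units, against 0.466% of all windows. Of the 9 genes, 6 had an entry in the table, and *Cryab*, *Hsp90aa1* and *Hspa8* did not. A match is only a stretch of letters, and its absence says nothing about the factor.

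Because the *Hspa1* transcripts are near copies (2701 bases aligned at 93.6% identity), reads from their shared body may not tell the genes apart. For the last 300 bases of *Hspa1a*, where a 3′ library places most reads, the best-scoring local alignment to *Hspa1b* covered 15 bases. Longer alignments of lower score were not searched for, and the end of *Hspa1b* was not aligned to *Hspa1a*. How the counting treated shared reads, and whether it dropped them, was not tested. The level of each gene alone carries this limit, and the sum of the pair is given beside the class levels.

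The library held 11214 barcodes and 51421499 UMIs, with 500 to 33809 UMIs per barcode (median 3250). The study's filter left 10139 cells, of which 9366 were placed by marker genes into 11 classes. The classes ranged from 89 fibroblast-like to 3355 cortex-like cells and included 1669 adrenaline and 390 noradrenaline chromaffin-like, 414 transitioning-like and 179 sustentacular-like cells. Transitioning-like cells carried chromaffin and sustentacular markers together. They formed a single class here, whereas the study separated a noradrenaline and an adrenaline transitioning cluster. *Pnmt* had a UMI in 45.7% of them, so their levels average over both lineages. Median depth ran from 1149 UMIs in sustentacular-like to 8429.5 in cycling cortex-like cells, so levels are given as UMIs per 1000000 UMIs of the class (CPM). The sustentacular-like median was 0.32 of that of the filtered library, and *Scn7a*, *Col28a1* and *Gfra3*, glial markers, were among its 10 leading genes. Scrublet called 669 doublets, 47 of them immune-like (7.51% of that class). The 9 genes made up 0.205% of the UMIs of the classed cells.

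**Figure D1:**
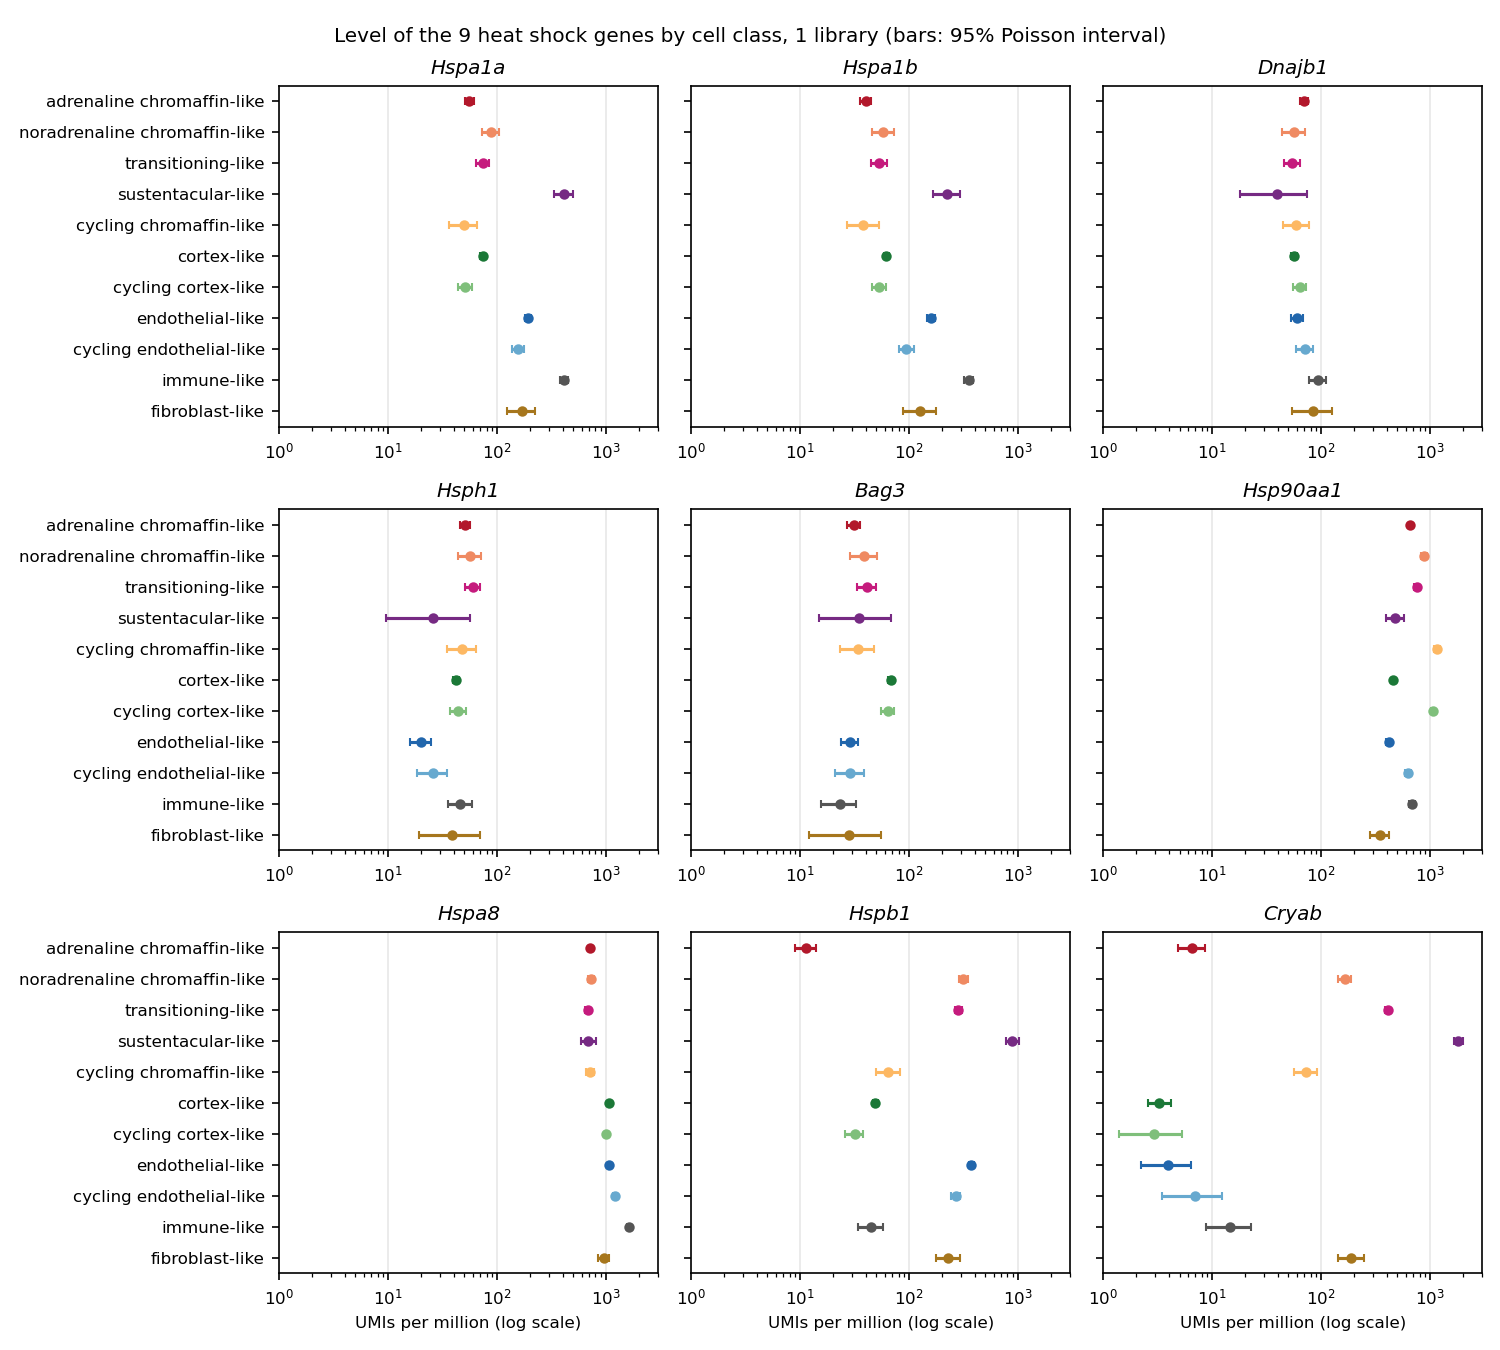
Level of each of the 9 genes in the 11 cell classes, as CPM on a log axis; points are pooled values and bars 95% Poisson intervals from 1 library. *Hspb1* and *Cryab* spanned the widest ranges, from 11.3 to 887 CPM and from 2.89 to 1817 CPM, and *Hspa8* one of the narrowest, from 678 to 1638 CPM.

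The plot of levels by class shows each gene group with its own order of classes. A set of 5 genes is grouped here as inducible: the Hsp70 pair, *Dnajb1* (Hsp40, which delivers clients to Hsp70), *Hsph1* (Hsp110, its nucleotide exchange factor) and *Bag3* (a co-chaperone of selective autophagy). Their sum was highest in immune-like cells at 925 CPM and lowest in cycling chromaffin-like cells at 228 CPM, a ratio of 4.06 (3.51 to 4.71). *Hsp90aa1* and *Hspa8*, grouped as abundant, summed to 2320.0 CPM in immune-like and 1168 CPM in sustentacular-like cells, a ratio of 1.99 (1.75 to 2.26). *Hspb1* and *Cryab*, the small heat shock genes, summed to 2704 CPM in sustentacular-like but to 17.8 CPM in adrenaline chromaffin-like cells, a 152-fold lower sum (126 to 185).

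*Hspa1a* was led by sustentacular-like cells at 411 CPM (333 to 503) and immune-like cells at 410.3 CPM (376 to 447), which did not differ beyond counting error. Endothelial-like cells followed at 193 CPM, fibroblast-like cells at 169 CPM and cycling endothelial-like cells at 156 CPM. Neighbours among these 3 were within counting error, but cycling endothelial-like over endothelial-like cells had a ratio of 0.81 (0.70 to 0.94). The chromaffin and cortex classes lay lower, with 87.3 CPM in noradrenaline chromaffin-like, 73.8 CPM in transitioning-like, 73.6 CPM in cortex-like, 55.6 CPM in adrenaline chromaffin-like, 51.2 CPM in cycling cortex-like and 49.7 CPM in cycling chromaffin-like cells. The 6 chromaffin, transitioning and cortex classes thus all stood below the 5 other classes. Within the medulla, the sustentacular-like level was 7.39 times (5.85 to 9.26) the adrenaline level, and noradrenaline cells were 1.57 times (1.27 to 1.94) above adrenaline cells.

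*Hspa1b* had nearly the same order, with 353 CPM in immune-like, 221 CPM in sustentacular-like, 159 CPM in endothelial-like, 126 CPM in fibroblast-like and 94.4 CPM in cycling endothelial-like cells. Its other classes lay between 38.0 CPM in cycling chromaffin-like and 61.9 CPM in cortex-like cells. Immune-like exceeded sustentacular-like cells by 1.60 times (1.20 to 2.18), which for *Hspa1a* was not the case. Summed over the pair, immune-like cells stood at 763 CPM (716 to 812), sustentacular-like cells at 632 CPM (533 to 743) and endothelial-like cells at 352 CPM, with the lowest level, 87.7 CPM, in cycling chromaffin-like cells. By the sum, immune-like cells were thus first and sustentacular-like cells second. Across the 16 named clusters the pair had a Pearson r of 0.96 on log2(CPM + 10), a description for near copies over clusters that share a library.

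The Hsp70 transcripts were sparse in single cells. *Hspa1a* had a UMI in 46.3% of immune-like cells (42.4 to 50.3), in 26.8% of sustentacular-like cells (20.5 to 33.9) and in 15.5% of adrenaline chromaffin-like cells (13.8 to 17.3). With each cell thinned to 1000 UMIs, which equalises depth, the shares were 31.5%, 18.7% and 4.95%, leaving out 74, 56 and 11 cells below that depth. Every cell type uses heat shock genes, so no class could serve as a background for free RNA, but *Chga*, the main chromaffin granule protein, stood at 23556 CPM in adrenaline chromaffin-like cells and at 738 CPM in fibroblast-like, 480.3 CPM in sustentacular-like and 42.2 to 98.4 CPM in the cortex, endothelial and immune classes. In thinned immune-like cells, *Hspa1b* was detected in 39.7% (32.3 to 47.3) of those with *Hspa1a* and in 19.8% (15.9 to 24.2) of those without. In thinned sustentacular-like cells these shares were 47.8% (26.8 to 69.4), 11 of 23 cells, and 7.0% (2.86 to 13.9). Cortex-like cells had 11.4% (7.68 to 16.2) and 4.97% (4.24 to 5.80), and endothelial-like cells 23.5% (18.2 to 29.5) and 12.4% (10.6 to 14.4). The intervals with and without *Hspa1a* were apart in these 4 classes and in cycling endothelial-like cells, and overlapped in the other 6 classes. The share was lower in cells with *Hspa1a* in transitioning-like cells, at 6.06% against 7.92%, and in cycling chromaffin-like cells, at 0 of 5 cells against 5.51%. How the treatment of reads shared by the copies bears on these shares was not tested.

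*Dnajb1* was far more even across classes. It ranged from 93.4 CPM in immune-like to 38.9 CPM in sustentacular-like cells, where it rested on 9 UMIs. From top to bottom the ratio was 2.40 (1.22 to 5.37). Neighbours in its order did not differ beyond counting error, but immune-like over endothelial-like cells had a ratio of 1.54 (1.23 to 1.92). The sustentacular-like class, second by the sum of the Hsp70 pair, had the lowest *Dnajb1* level. A wider inequality lay inside classes, as described with the clusters.

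*Hsph1* and *Bag3* followed neither pattern. *Hsph1* was highest in transitioning-like (60.0 CPM), noradrenaline (56.2 CPM) and adrenaline chromaffin-like cells (50.4 CPM) and lowest in endothelial-like cells (19.9 CPM), a ratio of 3.01 (2.28 to 3.98) from top to bottom with no pair of neighbours apart. *Bag3* was highest in cortex-like (67.9 CPM) and cycling cortex-like cells (63.4 CPM). Its other 9 classes lay between 23.0 and 41.0 CPM, and neighbours among them did not differ beyond counting error. Their ends were apart, with transitioning-like cells at 41.0 CPM (33.5 to 49.7) and immune-like cells at 23.0 CPM (15.5 to 32.8). In cortex-like cells *Bag3* had a UMI in 31.4% of cells, in immune-like cells in 4.47%. Median depth was 5114 UMIs in cortex-like and 1682.5 in immune-like cells, and these shares are not thinned, so they depend in part on depth.

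*Hsp90aa1*, the stress-responsive isoform of the Hsp90 chaperone of kinases and steroid receptors, was highest in the cycling chromaffin-like and cortex-like classes. It stood at 1159 CPM in cycling chromaffin-like and 1063 CPM in cycling cortex-like cells, followed by 879 CPM in noradrenaline chromaffin-like and 752 CPM in transitioning-like cells. The paper reports cells in G2M in all of its medullary clusters, so a class not named cycling may still hold dividing cells. Each cycling class exceeded the class not named cycling that was set beside it. The ratios were 1.77 (1.66 to 1.89) over adrenaline chromaffin-like, 2.32 (2.23 to 2.41) over cortex-like and 1.51 (1.39 to 1.63) over endothelial-like cells. The paper describes its cycling chromaffin cells as expressing both *Pnmt* and *Penk*, and the noradrenaline level, 879 CPM, was nearer to the cycling chromaffin-like level. Cycling chromaffin-like cells held 11.9% called doublets. The lowest levels were 458 CPM in cortex-like, 416 CPM in endothelial-like and 344 CPM in fibroblast-like cells.

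*Hspa8*, the constitutive Hsc70, was the most even gene in relative terms together with *Dnajb1*. It was highest in immune-like cells at 1638 CPM (1569 to 1709), followed by cycling endothelial-like (1205 CPM), endothelial-like (1078 CPM) and cortex-like cells (1062 CPM). The 5 medullary classes lay close together, from 678 CPM in transitioning-like to 724 CPM in noradrenaline chromaffin-like cells, and no neighbours among them differed beyond counting error. Its cycling classes were close to the classes not named cycling that were set beside them. The ratios were 1.00 (0.92 to 1.08) over adrenaline chromaffin-like, 0.95 (0.91 to 0.98) over cortex-like and 1.12 (1.06 to 1.18) over endothelial-like cells.

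*Hspb1* (Hsp27, a small chaperone that also binds actin) divided the medulla. It reached 887 CPM (770 to 1017) in sustentacular-like cells. Transitioning-like cells held 282 CPM (262 to 304) and noradrenaline chromaffin-like cells 316 CPM (286 to 348), but adrenaline chromaffin-like cells 11.3 CPM (8.99 to 14.0). Noradrenaline cells were thus 28.0 times (22.1 to 35.9) above adrenaline cells. Outside the medulla it was high in endothelial-like (373 CPM), cycling endothelial-like (268 CPM) and fibroblast-like cells (228 CPM) and low in cortex-like (49.1 CPM), immune-like (44.4 CPM) and cycling cortex-like cells (31.6 CPM). Noradrenaline, transitioning, cycling endothelial-like and fibroblast-like neighbours did not differ beyond counting error, which does not cover classes further apart in the order.

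*Cryab* (αB-crystallin, a small chaperone known from lens, muscle and glia) had the steepest gradient. It stood at 1817 CPM (1648 to 1999.8) in sustentacular-like, 407 CPM (382 to 432) in transitioning-like, 190 CPM (142 to 248) in fibroblast-like, 72.9 CPM (56.7 to 92.3) in cycling chromaffin-like and 165 CPM (144 to 189) in noradrenaline cells of the chromaffin lineage. The remaining classes lay between 2.89 and 14.5 CPM, with adrenaline chromaffin-like cells at 6.52 CPM (4.81 to 8.65). Transitioning-like cells were 2.46 times (2.12 to 2.86) above noradrenaline cells and sustentacular-like cells 4.47 times (3.98 to 5.01) above transitioning-like cells. For *Hspb1*, in contrast, transitioning-like and noradrenaline cells had a ratio of 0.89 (0.79 to 1.01). *Cryab* was itself among the 10 leading genes of the sustentacular-like and transitioning-like clusters, which were ranked after clustering. When the heat shock, chaperone and immediate-early genes were left out of the clustering, these classes held 177 and 419 cells, against 179 and 414. The part of *Cryab* alone in drawing them was not tested.

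**Figure D2:**
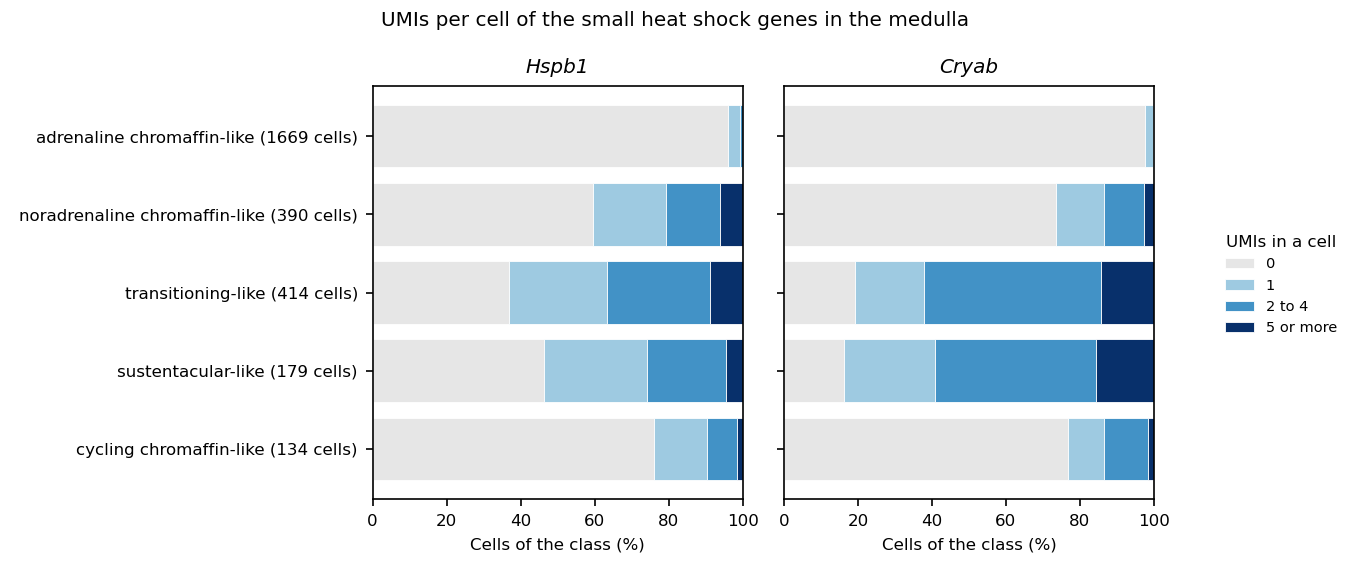
Share of cells (%) of the 5 medullary classes that held 0, 1, 2 to 4, or 5 or more UMIs of *Hspb1* or *Cryab*, from all UMIs of each cell. Of 1669 adrenaline chromaffin-like cells, 1603 held no *Hspb1* UMI and 1630 no *Cryab* UMI, whereas 80 of 414 transitioning-like and 29 of 179 sustentacular-like cells held no *Cryab* UMI.

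As the plot of UMIs per cell shows, *Cryab* was spread over most cells of the transitioning-like class (80.7%, 76.5 to 84.4) and of the sustentacular-like class (83.8%, 77.6 to 88.9). In noradrenaline chromaffin-like cells it was detected in 26.4% (22.1 to 31.1) and in adrenaline chromaffin-like cells in 2.34% (1.67 to 3.18). Noradrenaline cells held *Hspb1* in 40.5%, with up to 26 UMIs in 1 cell, and adrenaline chromaffin-like cells in 3.95%, with at most 4. Thinned to 1000 UMIs, the *Cryab* shares were 75.6% in sustentacular-like, 34.2% in transitioning-like, 12.8% in noradrenaline and 0.54% in adrenaline chromaffin-like cells. *Hspb1* and *Cryab* overlapped only in part within noradrenaline cells, where thinned cells with *Hspb1* had *Cryab* in 21.2% (13.1 to 31.4) and those without in 10.3% (7.0 to 14.4), intervals that overlapped.

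A level at least 2-fold above or below all other classed cells was then set beside the same count over 8776 genes with at least 10 CPM, a filter that all 9 genes passed. In adrenaline chromaffin-like cells none of the 9 genes was 2-fold higher, against 11.2% of all genes, and *Hspa1b*, *Hspb1* and *Cryab* were 2-fold lower, against 22.1%. In noradrenaline chromaffin-like cells *Hspb1* and *Cryab* were higher, against 9.5%, and none was lower, against 21.2%. In sustentacular-like cells *Hspa1a*, *Hspa1b*, *Hspb1* and *Cryab* were higher, against 9.07%, and none was lower, against 27.4%. In cortex-like cells none was higher, against 9.81%, and *Hspb1* and *Cryab* were lower, against 20%. In endothelial-like cells *Hspa1a*, *Hspa1b* and *Hspb1* were higher, against 12%, and *Hsph1* and *Cryab* were lower, against 22.7%. In immune-like cells *Hspa1a* and *Hspa1b* were higher, against 7.45%, and *Hspb1*, *Cryab* and *Bag3* were lower, against 29.8%. Since the genes were chosen on these values, nothing is read from the counts. The median log2 difference of the 9 genes was -0.85 in adrenaline chromaffin-like cells and 0.21 in immune-like cells, against -0.19 and -0.47 over all genes. In cortex-like cells it was -0.54 against -0.12. It lay nearer to the median over all genes in sustentacular-like (-0.30 against -0.33), noradrenaline chromaffin-like (-0.12 against -0.18) and endothelial-like cells (-0.01 against -0.12). The low *Hspb1* level of immune-like cells (-1.29 on the log2 scale) was -3.43 once called doublets were removed, and that of *Cryab* moved from -1.64 to -3.32.

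In 3 classes there was more than 1 cluster. The summed level of the inducible genes was 164, 223 and 877 CPM in the adrenaline chromaffin-like clusters and 206, 251 and 567 CPM in the cortex-like clusters, while the endothelial-like clusters had 459.6 and 466 CPM. Among the 3 adrenaline chromaffin-like clusters, the smallest, of 124 cells, was led by *Atf3*, *Egr3*, *Vgf*, *Ier2* and *Dnajb1*. *Dnajb1* is thus among the genes that describe this cluster, and its own part in drawing it was not tested. *Dnajb1* stood there at 472 CPM, against 39.2 and 45.0 CPM in the other clusters. *Hspa1a* stood at 212 CPM against 43.2 and 46.4 CPM, *Hsp90aa1* was 1.65 times (1.50 to 1.82) and *Hspa8* 1.66 times (1.51 to 1.82) the level of the other adrenaline cells, and *Hsph1* had a ratio of 1.26 (0.83 to 1.86) and *Bag3* one of 1.33 (0.77 to 2.16). *Hspa1b* was 2.43 times (1.70 to 3.41) and *Hspb1* 3.41 times (1.81 to 6.02) the level of the other adrenaline cells. *Cryab*, with 2.24 CPM from 1 UMI, had a ratio of 0.33 (0.01 to 1.92). The summed level of 20 immediate-early genes such as *Fos*, *Jun* and *Egr1*, which cells transcribe within minutes of stimulation or of tissue dissociation, was 21342.5 CPM in this cluster, against 3787 and 4550 CPM in the other adrenaline clusters, and its part in the result was not tested. When the heat shock, chaperone and immediate-early genes were left out of the clustering, this cluster was not formed. Of its cells, 122 fell into adrenaline clusters, split 60, 33 and 29 over 3 of them, and *Dnajb1* then ranged from 62.1 to 85.6 CPM across those clusters.

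The cortex-like class showed a similar division. Its smallest cluster, of 755 cells and led by *Ecrg4*, *Ly6d* and *Wnt4*, a gene of the outer cortex, held *Hspa1a* at 179 CPM against 36.3 and 53.2 CPM in the others, *Dnajb1* at 123 CPM against 36.7 and 36.2 CPM, and *Hspb1* at 154 CPM against 5.65 and 39.8 CPM. None of its leading 10 genes was a heat shock gene. *Hspb1* was 8.59 times (7.49 to 9.87) the level of the other cortex-like cells, while *Bag3* had a ratio of 1.04 (0.91 to 1.17). *Cryab* was 6.29 times (3.75 to 10.8) their level, but low in both, at 9.29 against 1.48 CPM. Called doublets made up 5.03% of this cluster, against 0.295% and 3.75% of the others. *Chga* stood at 92.0 CPM there, against 20.1 and 40.3 CPM, and the part of doublets and free RNA was not tested. The immediate-early sum was also higher in this cluster, at 7901 CPM against 1625 and 2399 CPM, and its part was not tested. The 2 endothelial-like clusters were close, with *Hspa1a* at 189 and 207 CPM and *Dnajb1* at 63.1 and 51.4 CPM.

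**Figure D3:**
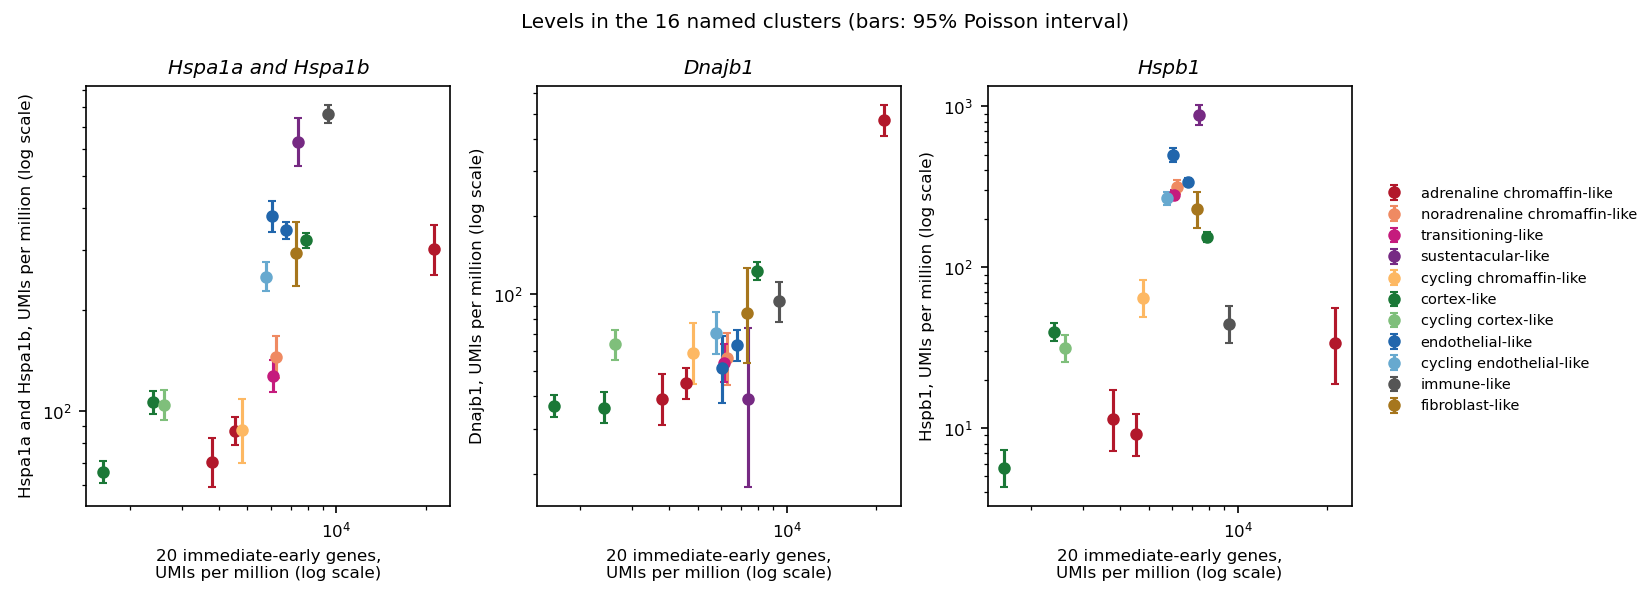
Pooled level of *Hspa1a* and *Hspa1b* together, *Dnajb1* and *Hspb1* against the summed level of 20 immediate-early genes in the 16 named clusters, all as CPM on log axes; bars are 95% Poisson intervals and colours mark classes. The adrenaline cluster at 21342.5 CPM of immediate-early genes had the highest *Dnajb1* level of all clusters, 472 CPM, but a Hsp70 pair level below that of the immune-like and sustentacular-like clusters.

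The plot over clusters draws the Hsp70 pair, *Dnajb1* and *Hspb1* against the immediate-early sum, and the other genes are given by r alone. The inducible genes did not all move with that sum. On log2(CPM + 10), Pearson's r with that sum over the 16 clusters was 0.75 for *Hspa1a*, 0.61 for *Hspa1b* and 0.77 for *Dnajb1*. It was 0.41 for *Hspb1*, 0.24 for *Cryab*, 0.23 for *Hsp90aa1*, 0.24 for *Hspa8*, 0.16 for *Hsph1* and -0.42 for *Bag3*. *Dnajb1* and *Hspa1a* had an r of only 0.43 with each other, and *Dnajb1* and *Hspb1* one of -0.04. *Cryab* and *Hspb1* had an r of 0.61 and *Hsp90aa1* and *Hsph1* one of 0.66. These values describe 16 clusters of 1 library that share its depth and preparation, and clusters are not replicates. Of the 20 immediate-early genes, 18 were among the variable genes used to cluster all cells, as were 5 of the genes followed here. The clusters were thus drawn in part by the genes that r compares. The adrenaline cluster with the highest immediate-early sum was not formed when these lists were left out of the clustering. The part of the clustering in these r values was not tested.

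The same relation was looked for inside classes. The cells of each class were ordered by their share of UMIs from the 20 immediate-early genes, none of which is among the 9 genes, and divided into 4 bins of nearly equal cell number. The adrenaline chromaffin-like and cortex-like classes pool clusters that differ in the immediate-early sum, so their bins can in part follow those clusters. *Hspa1a* was higher in the top than in the bottom bin in all 11 classes, beyond counting error in each. In adrenaline chromaffin-like cells it went from 11.8 to 124 CPM, in noradrenaline chromaffin-like cells from 20.5 to 166 CPM and in cortex-like cells from 13.3 to 183 CPM. As a ratio of top to bottom bin this was 10.5 (6.33 to 18.7) in adrenaline chromaffin-like and 13.7 (10.7 to 17.9) in cortex-like cells. The ratio was 3.25 (2.52 to 4.25) in endothelial-like cells, which went from 92.0 to 299 CPM, and 2.50 (1.93 to 3.26) in immune-like cells, which went from 261 to 653 CPM. In sustentacular-like cells *Hspa1a* went from 54.0 CPM (3 UMIs) to 1247 CPM (972 to 1576), which made their top bin the highest of all.

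**Figure D4:**
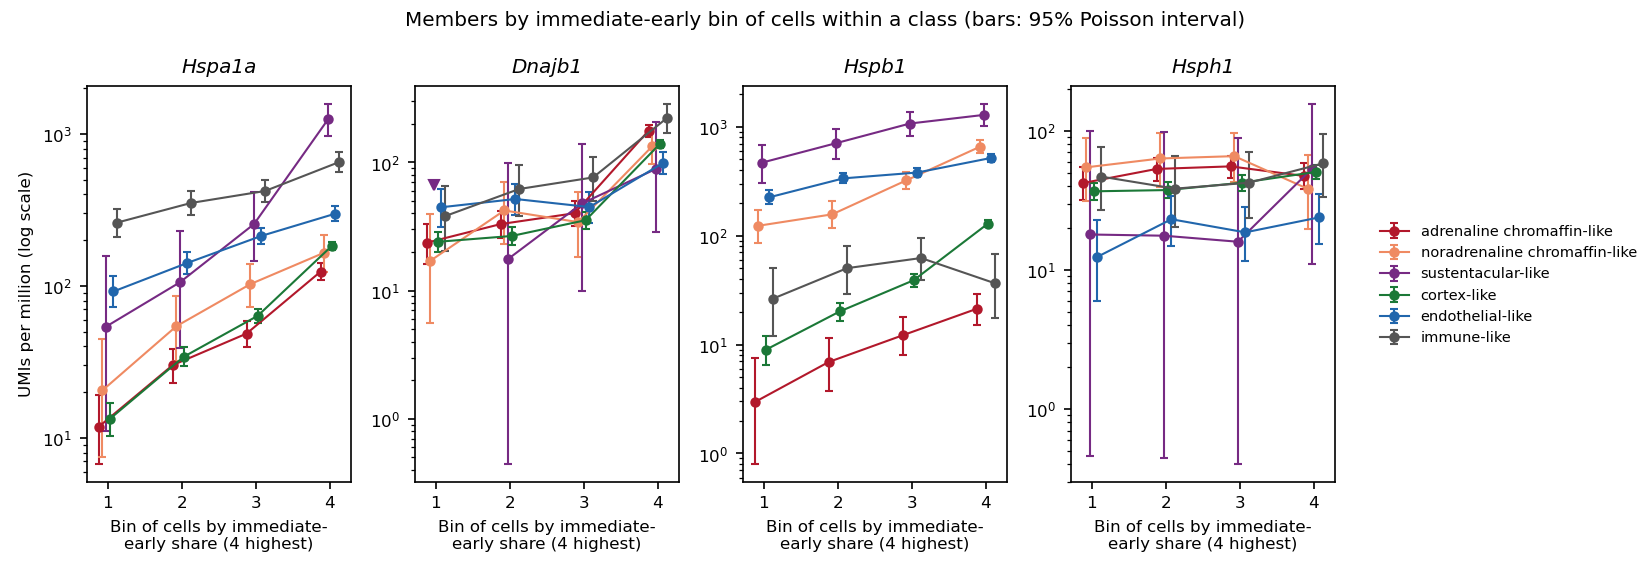
Level of *Hspa1a*, *Dnajb1*, *Hspb1* and *Hsph1* (CPM, log axis) in 4 bins of cells ordered by immediate-early share within 6 classes; bars are 95% Poisson intervals and the triangle marks the upper limit where a bin held 0 UMIs. *Hspa1a* was higher in the top than in the bottom bin of each class drawn, for example 124 against 11.8 CPM in adrenaline chromaffin-like cells, and *Hsph1* lay between 12.4 and 65.9 CPM in all of them.

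As the plot of bins shows, *Dnajb1* differed most between the last 2 bins, with 40.2 and 177 CPM in adrenaline chromaffin-like cells and 35.5 and 139 CPM in cortex-like cells. Its top bin exceeded its bottom bin beyond counting error in 9 of 11 classes. *Hspa1b* did so in 10, *Hspa8* in 10, *Hspb1* in 9, *Hsp90aa1* in 7, *Cryab* in 4, *Bag3* in 2 and *Hsph1* in 1 of 11. *Hsp90aa1* was lower in the top bin beyond counting error in 1 class. For *Hspa8* the ratios were small, from 1.26 to 1.90, and for *Hsp90aa1* they ran from 0.76 to 1.88. *Hspb1* went from 123 to 656 CPM in noradrenaline chromaffin-like cells, 5.33 times (3.73 to 7.82), whereas *Cryab* there went from 113 to 261 CPM.

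Against all genes, at least 2-fold higher levels in the top bin were held by *Hspa1a*, *Hspa1b*, *Dnajb1* and *Hspb1* in adrenaline chromaffin-like cells, where 4.32% of 8776 genes were, and by the same 4 genes in endothelial-like cells, where 5.52% were. In cortex-like cells *Cryab* joined these 4, at 7.02 against 1.39 CPM, where 17% of genes passed. In immune-like cells the Hsp70 pair, *Dnajb1*, *Cryab* and *Bag3* passed, against 12.1%. There *Cryab* rested on 3 UMIs in the bottom and 12 in the top bin, a ratio of 4.97 (1.34 to 27.5). *Bag3* rested on 5 and 9 UMIs, and its ratio of 2.24 (0.67 to 8.50) was within counting error. Median depth was 2610.0 UMIs in the bottom and 3077 in the top bin of adrenaline chromaffin-like cells, and the median mitochondrial share 6.55% and 5.71%. The part of cluster make-up, depth, mitochondrial share and tissue digestion in these differences was not tested.

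The UMIs of the inducible genes were also counted over ranked cells. The 10% of adrenaline chromaffin-like cells richest in the 5 inducible genes held 49.1% (46.8 to 51.4) of their UMIs and 21.7% of all UMIs of the class. In immune-like cells the richest 10% held 37.1% and 15.0%, and in cycling cortex-like cells 37.3% and 15.7%. A single adrenaline chromaffin-like cell carried at most 8 *Hspa1a*, 14 *Dnajb1* and 24 *Hspa8* UMIs. Thinned to 1000 UMIs a cell, the adrenaline share was 66.2%, so these shares depend on depth and are not compared between classes. Cells were ranked by the same UMIs that were then summed, so a share above 10% follows in part from the ranking, and nothing is read from its size.

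The genes whose levels over the 16 clusters were most like those of each member were taken from 10753 genes, by Pearson's r on log2(CPM + 10) and with no p. *Hspa1a* was closest to *Klf6* (r = 0.91), a zinc-finger transcription factor, *Jmjd1c* (0.89) and *Zfp36* (0.89), which promotes decay of cytokine mRNAs. *Hspa1b* was closest to *Klf6* (0.94), *Gsdmd* (0.91) and *Nfkbiz* (0.90), and *Dnajb1* to *Csrnp1* (0.91), *Abt1* (0.85) and *Dusp1* (0.81), a phosphatase of MAP kinases. *Klf6*, *Zfp36* and *Dusp1* were also in the immediate-early list. *Cryab* was closest to *Sorcs1* (0.98), the matrix proteoglycan gene *Vcan* (0.97) and the glial cadherin *Cdh19* (0.97), and *Hspb1* to *Tmem47* (0.92), *Pdlim7* (0.90) and *Spats2l* (0.89). *Hspa8* was closest to *Rack1* (0.89), *Mcl1* (0.87) and *Rpl10a* (0.86), and *Hsp90aa1* to *Zmym1* (0.93), *Ssx2ip* (0.82) and *E2f6* (0.82). *Bag3* was closest to *Ogdh* (0.93), *Hspa9* (0.93) and *Coq8a* (0.92), which encode mitochondrial proteins, and *Hsph1* to *Slc38a1* (0.91), *F8a* (0.89) and *Cpq* (0.86).

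A list of 30 further heat shock and cochaperone genes was read beside the 9, and 29 of them had a UMI in every class. Of the 29, 21 were at least 2-fold and 7 at least 5-fold apart between their highest and lowest class. Among the 7 were *Dnaja4* and *Hspb6*, whose lows of 0.77 CPM in immune-like cells rest on very few UMIs. The median ratio of the 29 was 2.87, against 3.37 for the 9 genes, 4 of which were at least 5-fold apart. This ratio was not taken over all genes, and the 9 genes were chosen with their levels in view. Nothing is read from these counts or medians. The mitochondrial chaperonins *Hspd1* (Hsp60) and *Hspe1* (Hsp10) were highest in cortex-like cells, at 1445 and 2250.4 CPM, with *Hspd1* lowest in fibroblast-like cells at 148 CPM and *Hspe1* in cycling endothelial-like cells at 230.1 CPM. *Hspa9*, the mitochondrial Hsp70, ran from 314 CPM in cortex-like to 63.2 CPM in fibroblast-like cells, and the small heat shock gene *Hspb6* from 33.9 CPM in cycling cortex-like to 0.77 CPM in immune-like cells. *Hspb8*, another small heat shock gene, was highest in noradrenaline chromaffin-like cells at 164 CPM, followed by transitioning-like cells at 114 CPM. It stood at 50.98 CPM in adrenaline chromaffin-like, 17.3 CPM in sustentacular-like and 3.06 CPM in immune-like cells. Like *Hspb1* and *Cryab* it was higher in noradrenaline than in adrenaline cells, but unlike them it was low in sustentacular-like cells. *Serpinh1*, the collagen chaperone Hsp47, was highest in fibroblast-like (415 CPM) and endothelial-like cells (404 CPM) and lowest in adrenaline chromaffin-like cells (7.88 CPM). *Hspa4l*, an Hsp110 relative of *Hsph1*, ran from 86.6 CPM in cycling chromaffin-like to 6.57 CPM in endothelial-like cells, and like *Hsph1* it was lowest in the latter. *Hsp90ab1*, the constitutive Hsp90, was among the evenest genes, from 3372 CPM in cortex-like to 2081 CPM in sustentacular-like cells, while *Hsf1* was low throughout, from 7.53 to 21.6 CPM. *Hsf2*, a second heat shock factor, ran from 48.6 CPM in cycling chromaffin-like to 10.5 CPM in fibroblast-like cells.

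Among the other genes of the list, *Hspa4*, also an Hsp110 relative, ran from 209.9 CPM in cortex-like to 88.8 CPM in cycling endothelial-like cells. The J-domain gene *Dnaja4* ran from 24.6 CPM in fibroblast-like to 0.77 CPM in immune-like cells, and *Dnajb4* from 77.9 CPM in sustentacular-like to 36.2 CPM in cycling cortex-like cells. *Dnajb5* reached 4.14 CPM in endothelial-like cells and had no UMI in sustentacular-like or fibroblast-like cells, so no ratio is given for it. Of the Hsp90 cochaperones, *Stip1* ran from 102 CPM in cycling cortex-like to 31.6 CPM in fibroblast-like cells, *Ahsa1* from 68.1 CPM in immune-like to 33.9 CPM in transitioning-like cells, and *Fkbp4* from 129 CPM in cortex-like to 35.0 CPM in endothelial-like cells. *St13*, an Hsp70-interacting protein, ran from 386 CPM in cortex-like to 186 CPM in sustentacular-like cells. *Cacybp* had 216 CPM in cycling chromaffin-like and 73.8 CPM in fibroblast-like cells. *Hspbap1* had 8.65 CPM in sustentacular-like and 1.74 CPM in cycling cortex-like cells, levels that rest on few UMIs. *Stub1*, a ubiquitin ligase that binds chaperones, ran from 322 CPM in cycling cortex-like to 131 CPM in immune-like cells. Of the *Bag3* relatives, *Bag1* ran from 398 CPM in cycling cortex-like to 156 CPM in sustentacular-like cells and *Bag2* from 11.9 CPM in cortex-like to 2.50 CPM in cycling endothelial-like cells. Of the 27 of these genes that passed the 10 CPM filter, *Hspe1*, *Hspd1*, *Hspa9* and *Hspb6* were at least 2-fold higher in cortex-like cells, against 9.81% of all genes. None was in adrenaline chromaffin-like or immune-like cells, against 11.2% and 7.45%. At least 2-fold lower were 5 in adrenaline chromaffin-like and 7 in immune-like cells, against 22.1% and 29.8%, and none in cortex-like cells, against 20%. Nothing is read from these counts.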

How the data were processed

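The authors sequenced 1 10x Genomics 3′ v3.1 library and deposited raw UMI counts per gene and barcode, made with Cell Ranger 4.0.0 on mm10 per the submitters' processing notes. Following the study's settings, cells with 500 to 5000 genes and at most 20% mitochondrial UMIs were kept and clustered in Seurat 5.3.0 (2000 variable genes, 10 principal components, resolution 0.4), and medullary clusters were clustered again. Clusters were named from fixed markers, so class names are rebuilt here and not the authors' own. The 773 cells whose cluster matched no class, 64.7% of them called doublets by Scrublet, were left out. Doublets elsewhere were kept. UMIs were summed per class and divided by the class total. Poisson, conditional ratio and Clopper-Pearson intervals at 95% were computed in SciPy 1.17.1, and cover counting error only. Thinned shares leave out cells under 1000 UMIs. The functions were tested on simulated data.

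No test was run, since a single library has no replicates. The 9 genes and all lists were chosen with earlier results of these data known, and the bins by immediate-early share were added after class levels had been seen. Genes named are the 9 members, 30 heat shock and cochaperone genes (with values for those at least 2-fold apart between classes, and for *Dnajb5* and *Hsp90ab1* in addition), 20 immediate-early genes, and for each member the 3 genes with the highest r over clusters. Coordinates come from GENCODE M21 (GRCm38) and promoter windows from RefSeq (GRCm38.p6). Alternatives changed the clustering, the cell filter, doublets, the naming of cells, the averaging, the depth to which cells were thinned and the UMI minimum.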

Additional observations from a re-analysis of the deposited data

How the results depend on the processing

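The ratio of highest to lowest class was 4.06 for the inducible genes, 1.99 for the abundant genes and 152 for the small heat shock genes. Under a stricter cell filter (a minimum of 1000 genes, a maximum of 10% mitochondrial UMIs), no sustentacular-like class was left, and the ratios were 3.46, 1.58 and 43.5, the last now from transitioning-like cells. Without called doublets the inducible ratio was 4.87. With each cell named from its own marker UMIs, the inducible ratio was 7.89 (lowest in 21 fibroblast-like cells) and the small heat shock ratio 225 (lowest in immune-like cells). The share of inducible UMIs held by the richest 10% of adrenaline chromaffin-like cells, 49.1%, was 46.3% under that filter and 66.2% with cells thinned to 1000 UMIs. The cause of these shifts was not tested. These values stayed inside their intervals at resolution 0.2 and 0.8, with 30 principal components and with the gene lists left out of clustering, as did the 3 ratios with levels averaged over cells; at resolution 0.2 no cycling chromaffin-like or fibroblast-like class was formed, and the inducible ratio, 3.68, was then against cycling cortex-like cells.

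Of 31 levels of single genes at least 2-fold apart from other cells, *Hspb1* in fibroblast-like cells reversed, to -1.70 on the log2 scale, when cells were named 1 by 1, which left 21 such cells. Over 238 alternative values, 174 stayed inside the interval of the main value, and 11 fell under 2-fold. Of 36 shares of cells with a UMI, 35 were lower with cells thinned to 1000 UMIs and all 36 with 2 UMIs required, as both settings remove UMIs or cells that count; with 2000 UMIs, where shallow cells are left out, 23 were lower. No paired analysis was possible because there is 1 library, and none could be left out. Depth limits the 179 sustentacular-like and 89 fibroblast-like cells most, where *Dnajb1*, *Hsph1* and *Bag3* rest on few UMIs.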
